A study of Psammomys obesus with 8 samples.

Results

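The genes described here encode the peptides, receptors and binding protein of the corticotropin-releasing hormone (CRH), vasopressin and oxytocin system: Crh, Crhr1, Crhr2, Crhbp, Avp, Avpr1a, Avpr1b and Oxtr. Their members were the contigs whose match to the mouse genome lay inside one of these 8 genes (a listed distance of 0), which gave 32 of the 548060 contigs in the table and 8 of the 19098 genes with a contig inside. Crhr1 held 10 contigs, Crhbp and Avpr1b 5 each, Crhr2 and Oxtr 4 each, Avpr1a 2, and Crh and Avp 1 each. No contig was assigned to Oxt, the oxytocin gene, at any distance.

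Methylated DNA was captured with MethylMiner, a methyl-CpG binding protein on beads, from the hypothalamus of *Psammomys obesus*, the fat sand rat, a gerbil that becomes obese and diabetic on a rich diet. The 8 libraries came from males at 16 weeks after birth. Those called low-low here (4 libraries) carry the diet label low lipid, and those called standard-low (4 libraries) the label standard lipid, and the design text names the diet of the fathers as the difference (the title says parents). No strain, genotype, litter or father is given for any library, and the labels do not say whether replicates are separate animals, so a p-value covers the spread among these libraries, part of which may be technical. The labels do not make clear which diet the offspring themselves ate. The question was whether capture at these genes differed between the groups of offspring.

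As background, CRH is made by neurons of the paraventricular nucleus and drives release of adrenocorticotropic hormone from the pituitary through its receptor CRHR1. Vasopressin, from the same nucleus, adds to that release through the V1b receptor (Avpr1b), while the V1a receptor (Avpr1a) acts in brain, liver and vessels. CRHR2 is the preferred receptor of the urocortins, the CRH-binding protein (Crhbp) keeps the peptide from its receptors, and the oxytocin receptor (Oxtr) serves social behaviour, lactation and feeding. Methylated CpG sites are what the capture protein binds, so a read count reflects how many CpGs a fragment holds, how many of them carry methyl groups and how much of the sequence is present. No input libraries were used here.

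Totals over the table ran from 12528388 to 13533441 counts in low-low and from 11646180 to 12156525 in standard-low (two-sided exact permutation p = 0.0286, the smallest that 4 against 4 can give). Values below are CPM, that is, counts scaled to a common library total from these totals with TMM factors of 0.992 to 1.02. The member contigs had mean counts of 10.3 to 77.3 per library, so single contigs are thinly covered. Captured DNA says nothing of expression, so the tissue label could not be checked by marker expression. Read as loci, listed markers of neurons, oligodendrocytes and pituitary had 0 contigs of 196 past an edgeR adjusted p of 0.05 (0.0268% of all contigs passed) and 13 at an unadjusted p under 0.05 (5.68% of all contigs). These 13 were spread unevenly, with 7 of the 40 oligodendrocyte contigs, 6 of the 138 neuron contigs and 0 of the 18 pituitary contigs. The 8 oligodendrocyte genes measured summed to 96.3 to 101 CPM in the low-low libraries and 79.4 to 103 in the standard-low ones. Of these 8 genes 6 were lower in standard-low, where 41.4% of all genes were higher. The 9 neuron genes measured summed to 288 to 299 CPM in low-low and 280 to 306 in standard-low, with 5 higher. For the 7 pituitary genes these were 38.5 to 41.5 and 36.0 to 44.7 CPM, with 3 higher. The part of such differences in any value below was not tested.

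The stretches of sand rat sequence that the results turn on are printed 5′ to 3′ as in the deposited contigs, and the mouse positions are those of the contigs' matches, on a build not given in the sources used here. The Crhr2 contig 1782842 (plus strand, chr6:55110105-55110475) is shown over its first 300 bases because it had the lowest p of the members, and the Oxtr contig 631728 (minus strand, chr6:112489091-112489306) and the first 300 bases of the Avpr1a contig 571592 (plus strand, chr10:122449519-122449803) because they were the richest in CpG. Capitals mark CpG sites.
Crhr2 1782842: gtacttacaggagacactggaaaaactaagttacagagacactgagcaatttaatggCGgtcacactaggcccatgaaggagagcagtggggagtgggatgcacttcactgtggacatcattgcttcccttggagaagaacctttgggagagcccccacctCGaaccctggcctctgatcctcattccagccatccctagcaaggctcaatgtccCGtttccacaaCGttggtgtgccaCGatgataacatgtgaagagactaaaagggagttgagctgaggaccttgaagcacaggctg
Oxtr 631728: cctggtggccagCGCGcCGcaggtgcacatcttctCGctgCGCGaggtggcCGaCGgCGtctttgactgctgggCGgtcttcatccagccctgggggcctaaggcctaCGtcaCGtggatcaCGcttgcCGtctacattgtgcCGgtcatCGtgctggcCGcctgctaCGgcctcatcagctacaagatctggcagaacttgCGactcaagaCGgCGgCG
Avpr1a 571592: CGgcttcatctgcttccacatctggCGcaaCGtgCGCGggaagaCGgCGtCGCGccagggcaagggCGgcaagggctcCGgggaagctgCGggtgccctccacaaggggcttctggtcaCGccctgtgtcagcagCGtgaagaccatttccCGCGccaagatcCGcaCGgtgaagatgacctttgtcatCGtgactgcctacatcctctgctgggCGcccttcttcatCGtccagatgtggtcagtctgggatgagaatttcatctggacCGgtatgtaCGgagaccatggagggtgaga

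The Crhr2 stretch holds 5 CpG sites in 300 bases, the Avpr1a stretch 23 in 300 and the Oxtr contig 22 in 220. Whether a site lay in an exon, intron or promoter of the sand rat gene was not analysed here.

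With edgeR's quasi-likelihood test, 0 of the 32 contigs passed a Benjamini-Hochberg adjusted p of 0.05, against 0.0268% of all contigs, and DESeq2 and limma voom also called 0. At an unadjusted edgeR p under 0.05 there was 1 of 32, the Crhr2 contig 1782842, against 5.68% of all contigs (2.93% higher and 2.76% lower in standard-low, its direction). DESeq2 put 0 of the 32 and limma voom 1 at that level, the latter a Crhbp contig. Over all contigs, DESeq2 put 12521 of 548053 there and limma voom 30477 of 548060. Groups without overlap were found at 0 of the 32, against 3.24% of all contigs (1.63% higher and 1.61% lower). In standard-low 15 member contigs had a higher and 17 a lower fitted value, where 50.3% of all contigs were higher, with a median log2 fold change of -0.02 beside 0.00 over all contigs and -0.02 over the 125082 contigs inside genes.

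Summed over the contigs inside each gene, 0 of the 8 genes passed an edgeR adjusted p of 0.05, against 0.00524% of all genes, with 0 at an unadjusted p under 0.05, against 6.03% (1.71% higher and 4.32% lower). DESeq2 and limma voom also called 0 of the 8. The groups overlapped at all 8 gene sums, and 3.48% of all genes had groups that did not (1.4% higher and 2.08% lower). Crh, Crhbp and Avpr1b had a higher and the other 5 a lower fitted value in standard-low, where 41.4% of all genes were higher, with a median log2 fold change of -0.04 beside -0.03 over all genes. These shares depend on the scaling. With DESeq2, which scaled on the gene sums, 4 of the 8 and 9599 of all 19098 genes were higher, with medians of -0.01 and 0.00.

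**Figure D1:**
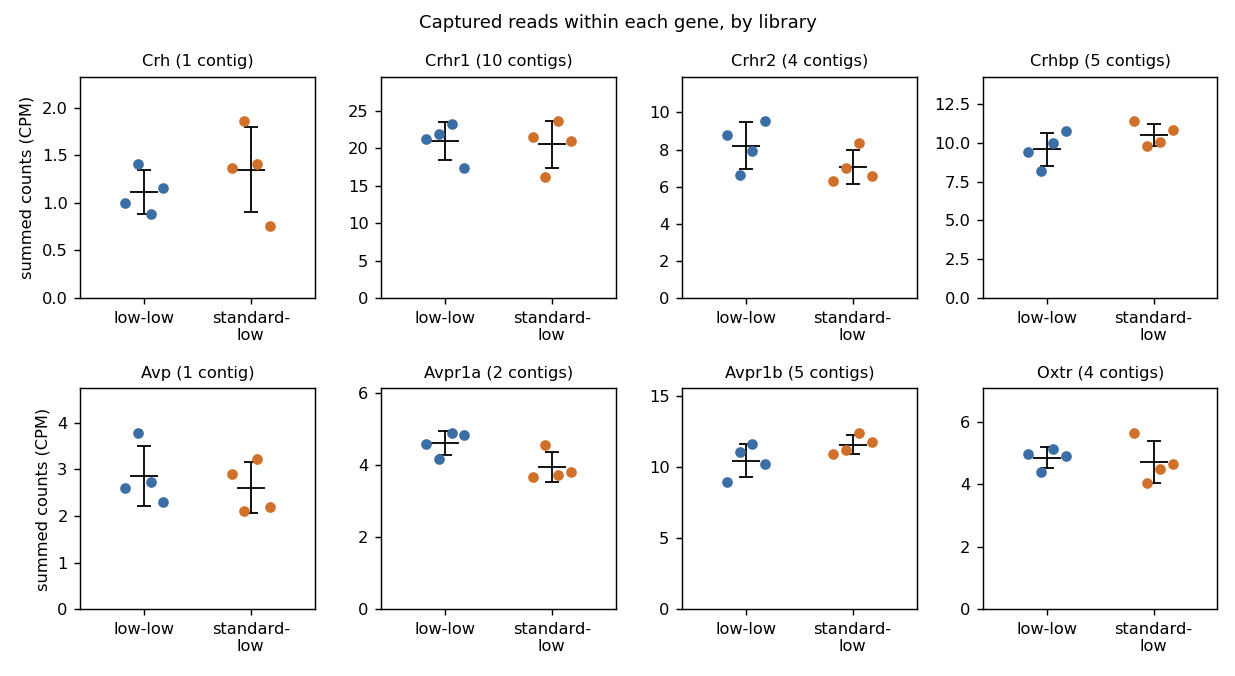
Captured reads summed over the contigs of each gene, in CPM (vertical axis, from 0), for the 4 low-low and 4 standard-low libraries (points), with mean and SD. The 2 groups overlap in every panel, and the Crh and Avp panels rest on 1 contig each.

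Of the ligand genes, Crh had the lowest level per length of all 8 members. Its contig had 0.993, 1.41, 0.883 and 1.15 CPM in low-low 1 to 4 and 1.37, 1.86, 1.41 and 0.761 CPM across standard-low 1 to 4. Both the highest and the lowest value belonged to standard-low, so the low-low libraries lay within its range. The fitted ratio of standard-low to low-low was 1.21 with a 95% interval of 0.79 to 1.85 (edgeR adjusted p = 0.886). A neighbouring contig 154 bases outside Crh had 0.691 to 0.891 CPM in low-low libraries and from 0.759 to 1.18 in the standard-low ones, again overlapping (ratio 1.18, 0.726 to 1.91).

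Avp, which encodes vasopressin and its carrier neurophysin, had its contig on mouse chr2:130582236-130582745, with 20 CpG sites in 515 bases. It had 2.60, 3.79, 2.73 and 2.30 CPM across low-low and 2.91, 2.11, 3.23 and 2.20 CPM across standard-low. The highest library was low-low 2 and the groups were interleaved. The ratio was 0.914 with an interval of 0.676 to 1.23 (edgeR adjusted p = 0.931), and without low-low 2 the log2 fold change went from -0.13 to 0.04.

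Crhr1, the main CRH receptor of pituitary and forebrain, had the most contigs, spread over 32.7 kb of mouse chromosome 11. Summed, it had 21.3, 22.0, 23.3 and 17.4 CPM across low-low and 21.6, 16.2, 23.6 and 21.0 CPM across standard-low. Low-low 4 and standard-low 2 were the low libraries, 1 in each group. The ratio was 0.981 with an interval of 0.839 to 1.15 (edgeR adjusted p = 0.978), and the sign of the log2 fold change, -0.03, turned in 3 alternatives. Its most abundant contig, 2205240, 1552 bases long with 47 CpG sites, had 5.81, 6.02, 8.35 and 5.45 CPM across low-low and 5.90, 4.72, 6.63 and 6.84 CPM across standard-low. Low-low 3 held its highest value and standard-low 2 its lowest (ratio 0.943, 0.758 to 1.17). Only 198 of its bases matched mouse. The 10 contigs had log2 fold changes from -0.27 to 0.42, 4 higher and 6 lower in standard-low. Contig 872793 had the largest of these and a wide low-low spread, with 0.688, 1.49, 0.401 and 0.230 CPM against 0.941, 0.928, 0.912 and 1.01 CPM across standard-low (edgeR adjusted p = 0.947). Its mean of 10.3 counts was the lowest of the member contigs.

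Crhr2 held the contig with the lowest p. Its sum was 8.79, 6.61, 7.95 and 9.52 CPM across low-low and 6.33, 7.0, 8.37 and 6.59 CPM across standard-low. Standard-low 1 and 4 lay below every low-low library, narrowly so for standard-low 4. Standard-low 2 lay above low-low 2 only, and standard-low 3 above low-low 2 and 3. The ratio was 0.862 with an interval of 0.709 to 1.05 (edgeR adjusted p = 0.819). All 4 contigs had a lower fitted value in standard-low, from -0.78 to -0.05 on the log2 scale. Contig 1782842, whose 300 bases with 5 CpG sites are printed above, had 1.45, 0.966, 0.722 and 2.53 CPM across low-low and 0.428, 1.35, 0.414 and 1.1 CPM across standard-low. Low-low 4 was the highest library and the ranges overlapped, with a ratio of 0.581 (0.362 to 0.934; edgeR adjusted p = 0.846). Before adjustment the p was 0.0255. Its counts varied within groups 4.56 times as much as counting error alone would give. Leaving out low-low 4 moved its log2 fold change from -0.78 to -0.35 (unadjusted p = 0.367), and leaving out standard-low 2 moved it to -1.12 (unadjusted p = 0.00391, adjusted 0.794). The most abundant Crhr2 contig, 495416, had 4.20, 2.97, 3.69 and 2.995 CPM across low-low and 2.74, 2.70, 4.81 and 3.13 CPM across standard-low. Its groups were interleaved (ratio 0.967, 0.74 to 1.26).

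Crhbp had 9.40, 8.17, 9.95 and 10.8 CPM across low-low and 11.4, 9.78, 10.03 and 10.8 CPM across standard-low, summed over 5 contigs that span 11.5 kb of mouse chromosome 13. Standard-low 1 and 4 lay above every low-low library, narrowly so for standard-low 4, and standard-low 2 and 3 lay inside the low-low range. The ratio was 1.1 with an interval of 0.933 to 1.29 (edgeR adjusted p = 0.842). Its most abundant contig, 4223721, had 3.67, 2.60, 3.21 and 3.15 CPM across low-low and 3.77, 2.36, 2.49 and 3.38 CPM across standard-low, and read from that contig alone the log2 fold change was -0.07 in place of 0.14. Contig 2613939, with 22 CpG sites, had 0.764, 1.04, 1.28 and 2.07 CPM across low-low and 1.88, 2.02, 1.74 and 1.69 CPM across standard-low. Low-low 4 was the highest of all 8 libraries there, and the other 3 low-low libraries lay below every standard-low one (ratio 1.42, 0.975 to 2.07). Its unadjusted p was 0.0672 with edgeR and 0.0327 with limma voom, and its adjusted p 0.89 and 0.891. Contig 3044720 held sequence shared with 1548 other contigs, so its reads may include those of other copies.

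**Figure D2:**
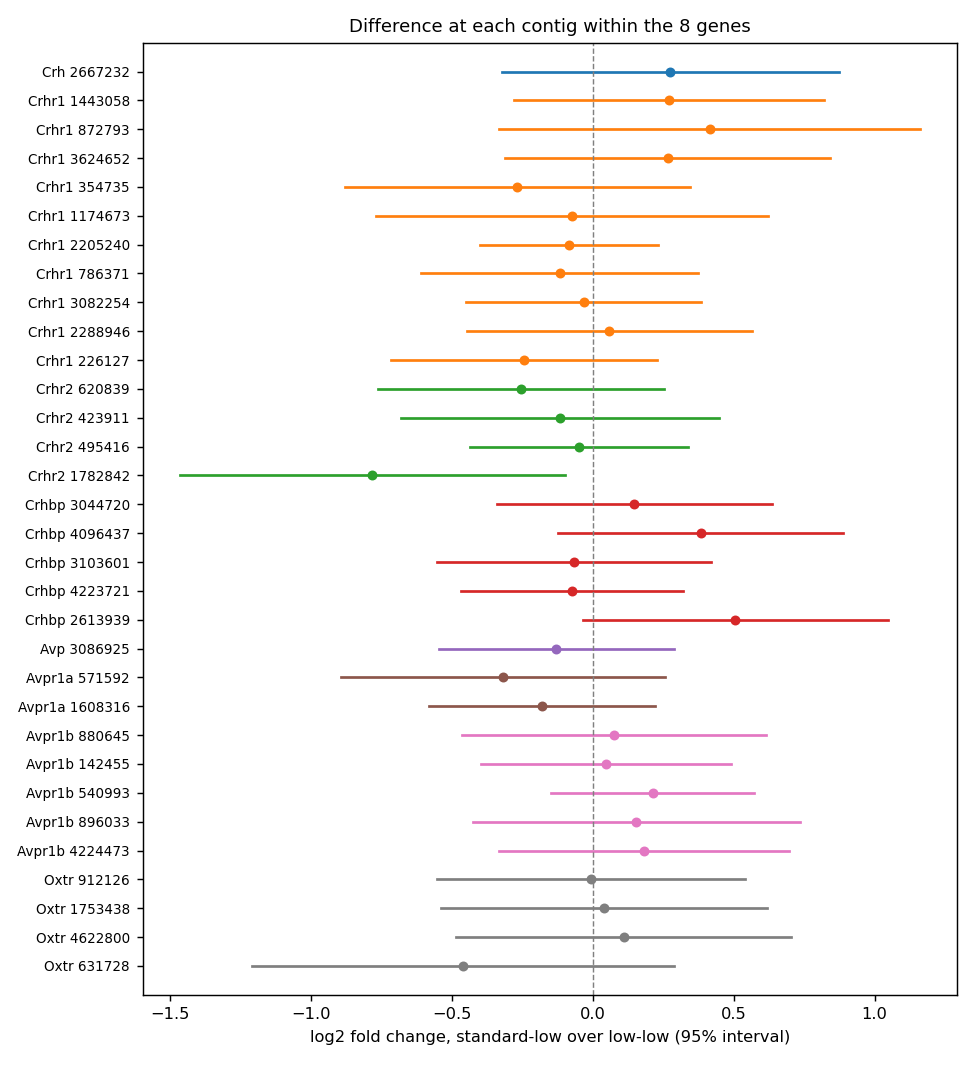
Log2 fold change of standard-low over low-low (horizontal axis) for each of the 32 contigs, labelled by gene and contig number and coloured by gene, with the 95% interval from edgeR as a line. The interval of the Crhr2 contig 1782842 lies below 0, and the other 31 include 0.

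Avpr1a, the V1a vasopressin receptor gene, had 4.58, 4.16, 4.90 and 4.84 CPM across low-low and 3.68, 4.55, 3.73 and 3.80 CPM across standard-low. Standard-low 2 lay inside the low-low range and the other 3 standard-low libraries lay below it. The ratio was 0.854 with an interval of 0.689 to 1.06 (edgeR adjusted p = 0.821), and both of its contigs had a lower fitted value. Its more abundant contig, 1608316, had 2.83, 2.60, 3.37 and 3.46 CPM across low-low and 2.22, 2.70, 3.23 and 2.62 CPM across standard-low. The CpG-rich contig 571592, printed above, had 1.76, 1.56, 1.53 and 1.38 CPM across low-low and 1.45, 1.86, 0.497 and 1.18 CPM across standard-low. Standard-low 3 was lowest and standard-low 2 highest of all 8 libraries at that contig (ratio 0.801, 0.538 to 1.19).

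Avpr1b, the V1b receptor gene of pituitary corticotrophs, had 8.94, 11.1, 11.6 and 10.2 CPM across low-low and 10.95, 11.2, 12.4 and 11.7 CPM across standard-low. The 2 highest libraries were standard-low 3 and 4, and low-low 1 and 4 were the lowest. The ratio was 1.11 with an interval of 0.947 to 1.3 (edgeR adjusted p = 0.828), and all 5 contigs had a higher fitted value in standard-low, from 0.05 to 0.21 on the log2 scale. Its most abundant contig, 540993, had 2.90, 3.64, 4.66 and 4.53 CPM across low-low and 3.42, 4.72, 6.05 and 3.97 CPM across standard-low. The groups were interleaved there too (ratio 1.16, 0.903 to 1.49).

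The 5 contigs named Avpr1b are not alike in how they were placed. Contigs 880645 and 4224473 matched mouse over 99.4% and 96.7% of their length. Contigs 142455, 540993 and 896033 all matched within the same stretch of mouse chr1:131604462-131604639, over 123, 172 and 176 bases, which is 19.5%, 19.2% and 32.5% of their length. Sequence similar to theirs (at least 80 bases at 75% identity or more) lay in 1083, 2961 and 1783 other contigs, and the similar contigs inside genes were named after 363, 860 and 610 different genes. The stretches of contigs 540993 and 142455 that aligned with contig 896033 are printed in its orientation, with CpG sites in capitals, to show how alike and how different they are. Contig 540993 aligned with bases 78 to 294 of contig 896033, and contig 142455 with bases 130 to 238 only.
Avpr1b 896033, bases 78 to 294: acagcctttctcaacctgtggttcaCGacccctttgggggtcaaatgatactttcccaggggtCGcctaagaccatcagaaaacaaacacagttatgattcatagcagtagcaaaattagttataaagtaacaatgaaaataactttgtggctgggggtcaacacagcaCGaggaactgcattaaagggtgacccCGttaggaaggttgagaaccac
Avpr1b 142455, bases 380 to 495, reverse complement: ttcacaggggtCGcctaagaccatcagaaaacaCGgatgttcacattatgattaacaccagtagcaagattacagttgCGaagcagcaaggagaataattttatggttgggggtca
Avpr1b 540993, bases 668 to 891, reverse complement: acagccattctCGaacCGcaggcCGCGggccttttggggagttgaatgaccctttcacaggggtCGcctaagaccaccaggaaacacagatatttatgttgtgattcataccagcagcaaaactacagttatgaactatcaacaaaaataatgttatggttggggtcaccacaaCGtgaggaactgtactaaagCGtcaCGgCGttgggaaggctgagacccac

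Over 124 aligned bases contigs 142455 and 540993 were 80.6% identical, and over 117 bases contigs 142455 and 896033 were 77.8% identical. Contigs 540993 and 896033 were 74.7% identical over 225 aligned positions. Assignment of these 3 contigs to Avpr1b therefore rests on a repeated stretch. Left out of the sum, the log2 fold change of Avpr1b was 0.13 in place of 0.15 (edgeR adjusted p = 0.902), a setting chosen after the data were seen.

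Oxtr, the oxytocin receptor gene, had 4.97, 4.38, 5.14 and 4.91 CPM across low-low and 5.65, 4.05, 4.48 and 4.65 CPM across standard-low. Standard-low held both the highest and the lowest library. The ratio was 0.97 with an interval of 0.784 to 1.2 (edgeR adjusted p = 0.969), and 2 contigs had a higher and 2 a lower fitted value. The most abundant contig, 912126, had 1.53, 1.26, 1.36 and 1.61 CPM across low-low and 1.45, 1.77, 0.995 and 1.52 CPM across standard-low, a ratio of 0.995 (0.681 to 1.45). The CpG-dense contig 631728 had 0.535, 1.11, 1.12 and 1.08 CPM across low-low and 1.2, 0.253, 0.995 and 0.338 CPM across standard-low. Standard-low 2 and 4 were the lowest of all, low-low 1 came next, and the other 5 libraries lay together. The ratio was 0.727 (0.432 to 1.22; edgeR adjusted p = 0.939). Contig 4622800 is placed in Oxtr by only 30 of its 322 bases.

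**Figure D3:**
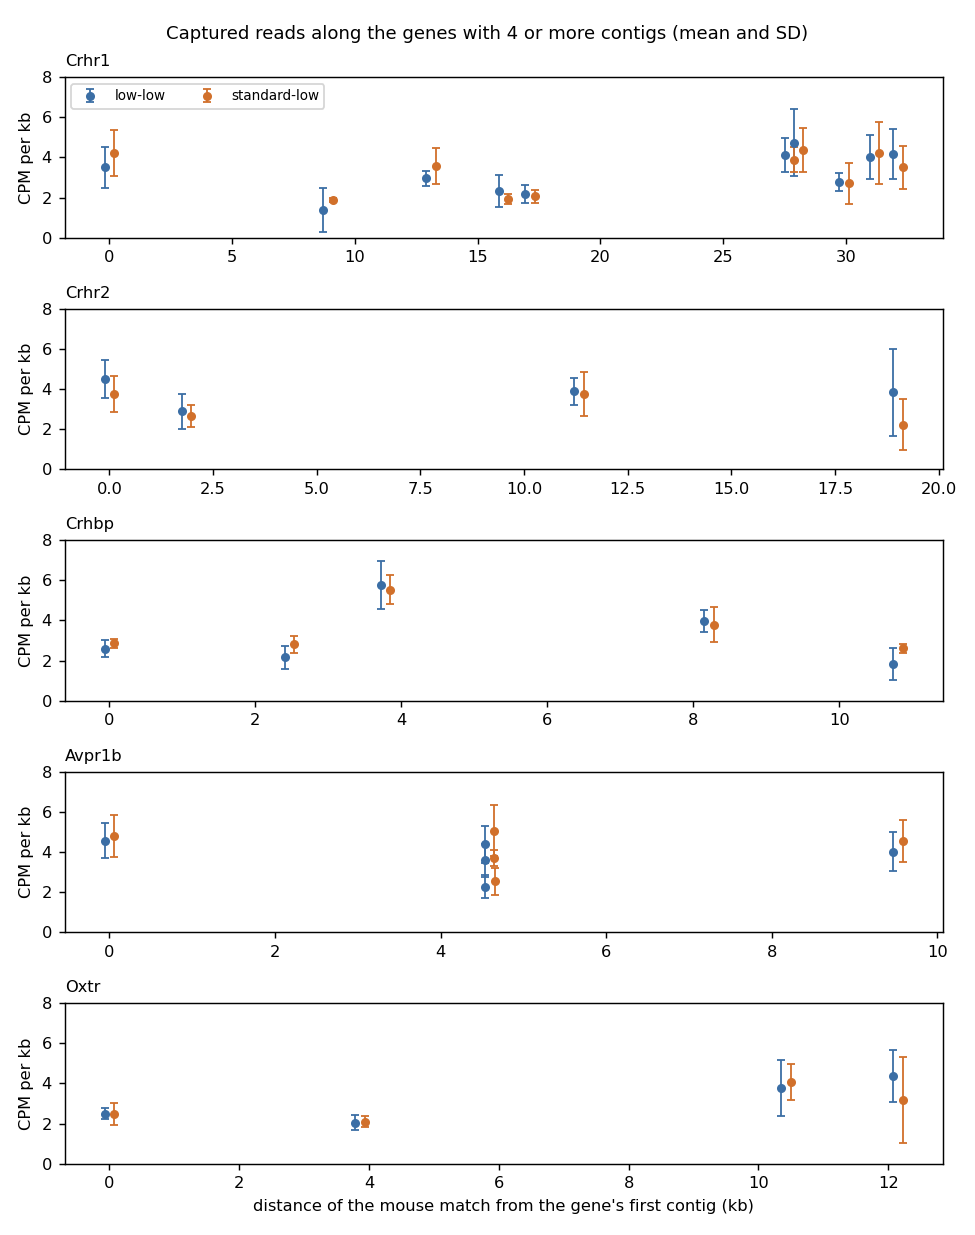
Captured reads per contig length (CPM per kb, vertical axis) against the distance in kb of each mouse match from the first contig of the gene (horizontal axis), for the 5 genes with 4 or more contigs. Points are group means over 4 libraries with SD. The library values of the groups overlap at every contig drawn.

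Levels are compared per length of contig. Over the 8 libraries Avp had the highest level, 5.31 ± 1.11 CPM per kb (SD, n = 8), followed by Avpr1a at 4.38 ± 0.514, Avpr1b at 3.96 ± 0.382 and Crhr2 at 3.50 ± 0.541. Crhr1 had 3.29 ± 0.421, Crhbp 3.15 ± 0.312, Oxtr 2.78 ± 0.289 and Crh 2.05 ± 0.59 CPM per kb. The Avpr1b level includes the 3 contigs placed by a repeated stretch, at 2.41 to 4.72 CPM per kb. Its other 2 contigs, 4224473 and 880645, had 4.28 and 4.69, on either side of Avpr1a, so the order of these 2 genes is not settled. Each gene overlapped its neighbour in this order over the range of its libraries. The ends of the order did not overlap, with Avp at 4.09 to 7.36 and Crh at 1.27 to 3.09 CPM per kb. Both rest on 1 contig each, and the SD covers the spread among libraries, not among contigs of a gene. Single contigs of other genes had means beyond both, 5.65 at Crhbp contig 3103601 and 1.64 at Crhr1 contig 872793. The median member contig had 3.79 CPM per kb, beside 3.52 over all contigs inside genes.

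Contigs of 1 gene also differed per length. In Crhr1 they ran from 1.64 CPM per kb at contig 872793 to 4.55 at contig 786371, and in Crhbp from 2.23 at contig 2613939 to 5.65 at contig 3103601. The mean of contig 872793, 10.3 counts, lay near the lowest of any listed contig, 10.1, so at its length it could hardly have stood lower. The Crh contig lay at the 8.76th percentile of contigs inside genes and the Avp contig at the 87th. Crhr2 contigs were poor in CpG, with an observed to expected CpG ratio of 0.204 to 0.256, where the median contig inside a gene had 0.379. The Oxtr gene held both ends of the range, 0.193 at contig 1753438 and 0.96 at contig 631728.

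The 3 member contigs with most CpG per 100 bases differed in capture. Contig 631728 of Oxtr had 22 CpG in 220 bases and stood at the 99.9th percentile of contigs inside genes in CpG ratio, but at the 57.1st percentile in captured reads per kb. Its mean of 10.4 counts lay near the lowest of any listed contig, 10.1, so at its length it could hardly have stood lower. Contig 571592 of Avpr1a, with 6.69 CpG per 100 bases, stood at the 99.5th and 65.2nd percentiles. The Avp contig 3086925 came next with 3.88 CpG per 100 bases, the 93.7th percentile of contigs inside genes by that measure. It stood at the 49.6th percentile in CpG ratio and the 87th in captured reads per kb. Across the 32 contigs CpG per 100 bases and captured reads per kb had a Spearman correlation of 0.40, and across the contigs inside genes 0.51. This is a description across contigs that share libraries, and contigs enter the table only above some minimum count.

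**Figure D4:**
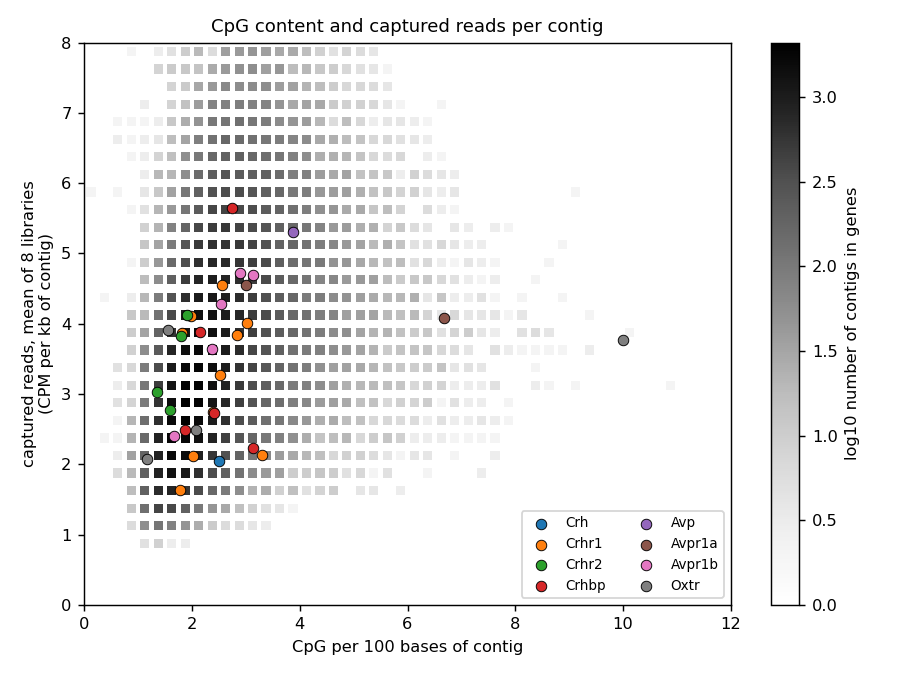
CpG per 100 bases of contig (horizontal axis) against captured reads per kb of contig (mean CPM of 8 libraries, vertical axis) for the 32 member contigs, coloured by gene, over a shaded grid of all contigs inside genes on a log10 count scale (1348 lie beyond the axes). The Oxtr contig 631728 and the Avpr1a contig 571592 stand to the right of the other members. The Oxtr contig, with a mean of 10.4 counts, lies near the lowest mean count of any listed contig, 10.1.

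Outside the genes but within 10000 bases of them lay 9 further contigs, 4 of them at Avpr1b, 2 at Crhbp and 1 each at Crh, Crhr1 and Avpr1a. None passed an adjusted p of 0.05 with edgeR, and 1 of the 9 had an unadjusted p under 0.05, against 5.68% of all contigs. This was contig 3320492, 4773 bases from Avpr1b, with 2.29, 1.63, 2.01 and 2.53 CPM across low-low and 2.57, 2.70, 3.07 and 3.21 CPM across standard-low. Every standard-low library lay above every low-low library there, by a small margin between low-low 4 and standard-low 1, as at 1.63% of all contigs (ratio 1.36, 1.01 to 1.83; edgeR adjusted p = 0.869). It was singled out after its values were seen, and only 185 of its 1018 bases matched mouse.

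The wider pathway was read from fixed lists of 34 genes, of which 28 had a contig inside. With edgeR 0 gene sums passed an adjusted p of 0.05, and 5 had an unadjusted p under 0.05, against 6.03% of all genes. Of the ligands and receptors closest to the members, Avpr2, the kidney vasopressin receptor, had 4.28, 3.64, 4.66 and 4.22 CPM across low-low and 2.91, 3.54, 3.81 and 2.70 CPM across standard-low. Only standard-low 3 reached the low-low range there (ratio 0.774, 0.608 to 0.985; edgeR adjusted p = 0.807). Ucn3, which encodes the CRHR2 ligand urocortin 3, had 5.98 ± 0.781 and 6.30 ± 0.56 CPM (SD, n = 4), and no contig was assigned to Ucn or Ucn2.

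Paraventricular transcription factors (2 of 4 measured, Sim1 and Arnt2) and genes of neuropeptide processing, storage and breakdown (7 of 8 measured) had 0 gene sums at an unadjusted p under 0.05. Receptor signalling genes had 4 of 17, 1 higher and 3 lower, against 6.03% of all genes (1.71% higher and 4.32% lower). Of the 234 contigs in those 17 genes, 13 had an unadjusted p under 0.05, against 5.68% of all contigs. Of these, Creb1, the transcription factor that binds the cAMP response element, averaged 4.81 ± 0.968 CPM over the low-low libraries and 6.40 ± 0.878 over the standard-low ones (SD, n = 4). Arrb2, which encodes beta-arrestin 2, had 17.1 ± 2.23 and 13.6 ± 3.07 CPM. The G protein gene Gna11 had 26.9 ± 0.523 and 22.4 ± 5.37 CPM, and the adenylyl cyclase gene Adcy9 had 53.7 ± 2.15 and 49.0 ± 2.31 CPM. All 4 had an edgeR adjusted p of 0.807, and the groups overlapped in all but Adcy9, while 3.48% of all genes had groups that did not overlap.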

How the data were processed

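The authors deposited 1 table of read counts per assembled contig for 8 libraries, with each contig's sequence and, for some, a mouse match and the mouse gene nearest that match with its distance. FastQC and BWA are named per the submitters' processing notes, while the sources used here do not name the assembler, the mouse build or how reads that fit several places were handled. The lowest summed count was 81, so only contigs above some minimum are listed. The header separates library names by spaces and the values by tabs, so columns were matched in header order.

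Contigs, and counts summed by Ensembl identifier over contigs at distance 0, were compared by edgeR 4.0.16 (R 4.3.3) (TMM factors of the contig table, glmQLFit, two-sided glmQLFTest, no filter), with Benjamini-Hochberg adjustment over all contigs or genes. Standard errors were the log2 fold change over the root of F, and 95% intervals used the test's degrees of freedom. Ratios are fitted. All 8 symbols also occur in the RefSeq annotation of the sand rat. Similar contigs were found with BLAST 2.17.0. Alternatives were DESeq2 1.42.0, limma 3.58.1 voom, relative log expression factors, a mean of at least 20 counts, a replicate block, other sums and leaving out each library. The contig test was run on simulated counts that gave every contig the same spread beyond counting error. This does not cover contigs that vary more, and summed counts were not simulated. The 8 genes were named whatever their result, with values per library for gene sums, the most abundant contig and any contig at an unadjusted p under 0.05, and any other contig was picked out with its values known. The members and lists were chosen with earlier results of these data known.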

Additional observations from a re-analysis of the deposited data

Results flagged for a closer look

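Of 80 groups of 4 libraries (gene sums and contigs of the 8 genes), 3 had a library far from the other 3 by Dixon's test at the 95% level. Chance gives about 1 in 20. In the summed Avpr1a counts, standard-low 2 was high at 4.55 CPM, with the other 3 standard-low libraries at 3.68 to 3.80 CPM. At the Avpr1b contig 896033, low-low 4 was low at 0.768 CPM, with the other 3 low-low libraries at 1.34 to 1.45 CPM. At the Oxtr contig 631728, low-low 1 was low at 0.535 CPM, with the other 3 low-low libraries at 1.08 to 1.12 CPM.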

How the results depend on the processing

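No member contig and no member gene sum was called under any of the 13 contig and 17 gene settings tried, the main ones aside, and the lowest adjusted p of a member gene sum was 0.305 (Crhr2 without standard-low 3, edgeR). The Crhr2 sum had an unadjusted edgeR p under 0.05 in 2 of its 17 alternatives, 0.0380 without low-low 2 and 0.0373 without standard-low 3. Over all 19098 genes, 822 and 2802 had one in these settings. No other member gene sum did in any alternative. The Crhr2 contig 1782842 had an unadjusted p under 0.05 in 7 of its 12 alternatives. Of 135 gene sum values under alternatives, 129 kept their direction. Those that turned were all near 0 on the log2 scale: Crhr1 at 0.0016 with DESeq2, 0.0257 without low-low 3 and 0.0724 without standard-low 2, Crhbp at -0.0743 with its most abundant contig, Avp at 0.0398 without low-low 2, and Oxtr at 0.0218 without standard-low 2. With DESeq2 the median over all genes also moved, from -0.0304 to 0.0012. Leaving out 1 library at a time, the values ran from -0.1079 to 0.0724 for Crhr1, from -0.2506 to 0.0398 for Avp and from -0.1420 to 0.0218 for Oxtr. Member contigs at an unadjusted p under 0.05 numbered 0 of 32 with DESeq2, 0 of 16 with a mean of at least 20 counts, and 0 to 2 when 1 library was left out. Over all contigs, 12521 of 548053 had one with DESeq2 and 12884 of 221973 with a mean of at least 20 counts. With 1 library left out, 26945 to 41080 of 548060 did. Over the whole table, called contigs went from 147 to 32 with DESeq2, 50 with limma voom and 65 with a mean of at least 20 counts, and to between 68 and 207 with 1 library left out (68 without low-low 2 and 97 without standard-low 4). Called genes went from 1 to 2 with DESeq2, 0 with limma voom, 3 with the replicate block and 5 with the most abundant contig, and to between 0 and 30 with 1 library left out (30 without standard-low 3, 8 without standard-low 2 and 0 without any other). Deviations of same-numbered libraries correlated at -0.01 to 0.03 and those of differently numbered ones at -0.04 to 0.03. Of the 8 libraries, 5 correlated best with the library of their own number. The median contig had 17.4 counts per library, so counting error weighs on these correlations. They cannot settle whether the numbers pair the samples. With the replicate block 206 contigs and 3 genes were called, 0 of them members. There 1 of the 32 member contigs had an unadjusted p under 0.05, beside 31484 of all 548060. Crh was not tested as a sum with a mean of at least 20 counts. Member contigs averaged 10.3 to 77.3 counts per library, which limits what a single contig can show.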

Other observations

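Libraries of a group differed at Crhr1 by more than counting error. Its summed counts had a within-group chi-square of 4.86 per degree of freedom, where counting error alone gives about 1, beside a median of 1.78 among the 1949 genes within 20% of its mean count, which put it at the 89.4th percentile of them. Low-low 4 (17.4 CPM) and standard-low 2 (16.2 CPM) were the low libraries. A low standard-low 2 was not particular to Crhr1. It was also the lowest library at listed genes such as Gna11 (15.4 CPM) and Arrb2 (10.4 CPM), and the highest at others such as Creb1 (7.51 CPM). Without it the median log2 fold change over all genes went from -0.03 to -0.01. In within-group chi-square Avpr1a lay at the other end from Crhr1, at 0.415 and the 4.42nd percentile of 2081 genes of like count. Among the 32 contigs, 10 (31.3%) had a value above 2, beside 21.2% of contigs inside genes.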
